A study of Mus musculus with 6 samples.

Results

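The proximal end of the mouse incisor was described in its baseline state, from the 3 control samples of a bulk RNA sequencing series of 6 samples. The controls were chosen by their labels and were scaled to CPM, the count of a gene per 1000000 counts of its library, and no mutant sample was compared with them. They came from mice carrying Fgfr1fl/fl, in which both alleles of Fgfr1 are flanked by loxP sites without a Cre transgene, and the labels call them wild type. The mice were of mixed background and 1 month of age when tamoxifen was given, and the incisors were collected a week later. The study's methods list control mice among those injected with tamoxifen, so this baseline is that of floxed mice after the drug and not of untreated mice. The other 3 samples were Gli1CreER;Fgfr1fl/fl mutants of the same schedule. The label gives the tissue as incisor, and the methods narrow it to the proximal end, in which every cell type present contributed RNA. The labels number the samples but do not say that each came from a separate mouse, so each SD below is the spread between 3 samples, which may in part be technical.

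The mouse incisor grows throughout life and is renewed from its proximal end, where stem cells of the dental epithelium and of the dental mesenchyme reside. The epithelium gives rise to ameloblasts, which secrete the proteins of enamel and then the proteases that remove them as the mineral hardens. The mesenchyme gives rise to odontoblasts, which lay down a matrix rich in type I collagen that mineralizes into dentin, and to the pulp and the follicle around the tooth. Vessels, nerves and resident macrophages enter at this end.

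The control libraries held 32292649, 31060222 and 32712448 estimated counts. Of the 19060 genes analysed, 18291, 18317 and 18282 had at least 1 count, and 9758 had a mean of at least 10 CPM. At the shallowest depth, a level of 10 CPM had a 95% Wilson interval from 8.96 to 11.2 CPM, and a count of 0 allowed up to 3 counts, or 0.0966 CPM. These limits cover counting error only. The library of control 2 stood apart in its skeletal muscle genes, since 21 measured genes of 25 listed summed to 20.9, 4706 and 46.7 CPM in controls 1, 2 and 3. All 3 libraries carried Y-linked transcripts, with Ddx3y at 28.9, 27.8 and 24.9 CPM, while Xist, transcribed from the inactive X chromosome of females, lay at 0.186, 0.0351 and 0.0628 CPM. Throughout, 3 values in a row are those of controls 1, 2 and 3 in that order.

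A few secreted proteins of tooth matrix took a large share of all counts. The 20 most counted genes of each library held 21.1, 25.2 and 25.9% of its counts, and the 100 most counted held 34.4, 34.0 and 37.1%. Amelx, on chromosome X, encodes amelogenin, the main protein of forming enamel, and led every library with 54160.3, 70457 and 70819.5 CPM. Ambn, which encodes the enamel protein ameloblastin, followed by mean with 33349, 36509.7 and 49358 CPM. Col1a1, the alpha-1 chain of type I collagen, had 19677, 59637 and 26062 CPM and was higher in control 2 than in the other libraries. The fourth gene by mean was CT010467.1, annotated as ribosomal RNA, with 23123, 12419 and 50974 CPM. It was followed by Eef1a1, a translation elongation factor, with 22186, 9068 and 14277 CPM.

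**Figure D1:**
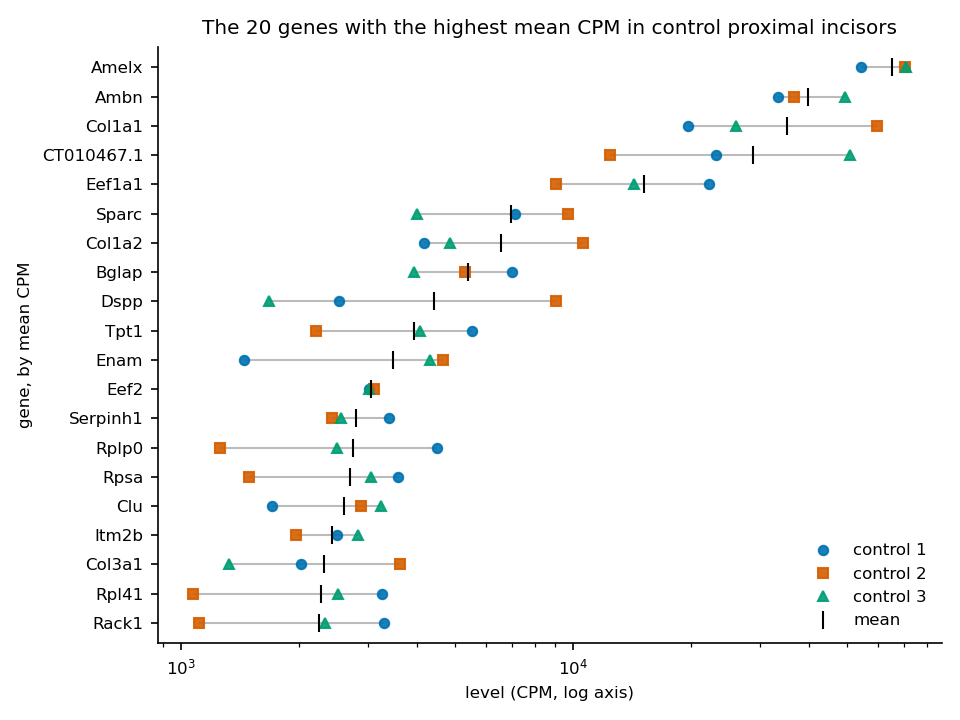
Level in CPM on a log axis of the 20 genes with the highest mean, with 1 symbol per control library, a black tick at the mean and a grey line from the lowest to the highest library. Amelx and Ambn lie at the top with close symbols, whereas Col1a1, CT010467.1 and Dspp spread over a ratio of 3.03, 4.10 and 5.39 between the highest and the lowest library.

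Matrix proteins made up much of the rest of the first 20. Sparc, a collagen- and calcium-binding protein of mineralizing matrix also called osteonectin, had 7112, 9724 and 4007 CPM. Col1a2, which encodes the partner chain of Col1a1, had 4168, 10609.5 and 4868 CPM. Bglap, which encodes osteocalcin, had 7005, 5293 and 3935 CPM, and Dspp, the precursor of the main noncollagenous proteins of dentin, had 2539, 9069 and 1682 CPM. Enam, which encodes enamelin, Serpinh1, a collagen chaperone, Clu, an extracellular chaperone, and Col3a1, the chain of type III collagen, also belonged to them. The others were Tpt1, Eef2, Rplp0, Rpsa, Itm2b, Rpl41 and Rack1, which are expressed in most cell types. Eef2, an elongation factor, was the least variable of the 20, with 3023, 3117 and 3024 CPM.

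When counts were divided by the length of all annotated exons of a gene, which allows genes to be compared with each other, Amelx and Ambn again came first. The mean level was 65211 CPM per kb for Amelx, 20708 for Ambn, 11694 for CT010467.1, 8756 for Bglap, 6088 for Eef1a1 and 5352 for Col1a1. Bglap2, a close copy of Bglap with which it can share reads, came next with 3719 CPM per kb, before Mir6236, Rplp1 and Rps15. Without control 3 the mean of CT010467.1 was 7206 CPM per kb, below that of Bglap at 9950.0. Without control 2 the mean of Col1a1 was 3485 CPM per kb. Of the 20 highest genes on this scale, 16 were also among the 20 highest per kb of the longest transcript. Amelx was 3.19 ± 0.480 times as abundant as Ambn per kb of exons (SD, n = 3).

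Amelx (ENSMUSG00000031354.16) lies at chrX:169176114-169187200 of GRCm38 on the minus strand, within the span of Arhgap6, which runs on the opposite strand, and shares no exon bases with it. Ambn (ENSMUSG00000029288.11, chr5:88455991-88468531) and Enam (ENSMUSG00000029286.12, chr5:88487975-88506049) are neighbors on the plus strand of chromosome 5, and Bglap (ENSMUSG00000074483.2, chr3:88383501-88384464) is on the minus strand of chromosome 3. Promoters from RefSeq, each 250 bases before to 50 bases after the annotated start, are written 5′ to 3′ on the strand of the gene. They are shown for these 4 genes, which were among the most counted matrix genes. The reference used held no promoter for Col1a1 or Dspp, which were more counted than Enam. Capitals mark TATAAA and CCAAT, in either orientation (TTTATA and ATTGG).
Amelx, chrX:169187160-169187459, minus strand: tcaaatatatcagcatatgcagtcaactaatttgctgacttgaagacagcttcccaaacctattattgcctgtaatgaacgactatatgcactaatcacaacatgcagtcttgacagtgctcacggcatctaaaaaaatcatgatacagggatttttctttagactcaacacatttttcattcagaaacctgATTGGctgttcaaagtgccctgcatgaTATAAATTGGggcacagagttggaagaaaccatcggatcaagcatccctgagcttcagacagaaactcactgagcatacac
Ambn, chr5:88455741-88456040, plus strand: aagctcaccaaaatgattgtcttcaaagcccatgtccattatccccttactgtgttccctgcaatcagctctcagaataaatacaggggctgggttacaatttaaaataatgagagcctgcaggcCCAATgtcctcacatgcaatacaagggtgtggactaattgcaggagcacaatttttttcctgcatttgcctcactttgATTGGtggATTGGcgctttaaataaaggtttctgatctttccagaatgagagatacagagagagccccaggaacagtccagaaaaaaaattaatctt
Enam, chr5:88487725-88488024, plus strand: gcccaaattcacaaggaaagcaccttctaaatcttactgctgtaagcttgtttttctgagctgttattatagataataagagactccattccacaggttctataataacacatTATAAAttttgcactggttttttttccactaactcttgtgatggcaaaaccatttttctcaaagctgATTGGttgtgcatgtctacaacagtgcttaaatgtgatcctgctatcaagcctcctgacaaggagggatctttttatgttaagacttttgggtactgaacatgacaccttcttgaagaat
Bglap, chr3:88384417-88384716, minus strand: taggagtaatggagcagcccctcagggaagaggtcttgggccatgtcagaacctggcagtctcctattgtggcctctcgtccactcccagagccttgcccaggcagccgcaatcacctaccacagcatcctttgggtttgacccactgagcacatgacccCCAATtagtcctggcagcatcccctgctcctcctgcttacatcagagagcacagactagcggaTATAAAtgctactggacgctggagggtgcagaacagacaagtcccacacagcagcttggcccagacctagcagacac
TATAAA began at position -31 from the start in Amelx and at -27 in Bglap, and at -137 in Enam. Ambn held none in this window. In Amelx the letters ATTGG began at -58 and at -26, the latter sharing 1 base with TATAAA, and in Ambn they began at -47 and -39. TATAAA in either orientation was found in 14.1% of 27025 mouse promoters of this length and CCAAT in 37.8%. Among the promoters of genes in the count table the shares were 8.0% and 38.2%. Among the 7 enamel genes of the list below, 3 held TATAAA and 5 held CCAAT. Such a match is a description of the letters and not of a bound site.

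The 7 genes listed for enamel matrix and its proteases, all of which were measured, summed to 91350.5, 114768 and 127384 CPM, or 9.14, 11.5 and 12.7% of counts, with a mean of 111167 ± 18285 CPM (SD, n = 3). Enam had 1449.8, 4656 and 4326 CPM. It was lower in control 1 than in the other libraries, and it was the only member with a ratio over 2 between the highest and the lowest library. Amtn, which encodes amelotin of the maturation stage, had 1146, 1337 and 1257 CPM. Odam, which encodes an odontogenic ameloblast-associated protein, had 483, 909 and 642 CPM. Mmp20, the metalloproteinase that processes the secreted enamel proteins, had 628, 701 and 819.8 CPM, and Klk4, the serine protease of enamel maturation, had 135, 198 and 162 CPM. Control 1 was the lowest library for all 7 members, and control 2 was the highest for 4 and control 3 for 3.

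Amelx took 59.3, 61.4 and 55.6% of the counts of the list and Ambn 36.5, 31.8 and 38.7%. Per kb of the longest transcript, the share of Amelx was 76.3, 78.5 and 74.1%. Per kb of exons, Amtn had 1219.8 CPM, Enam 633, Odam 493, Mmp20 218 and Klk4 132 CPM on average. The secreted structural proteins therefore stood above the proteases on the scale that allows genes to be compared.

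The list for dentin and bone mineral matrix summed to 14524, 20637 and 9848 CPM over 17 measured members of 18. Dspp varied most among its abundant members, being 5.39 times as high in control 2 as in control 3. Its mean was 4430.0 ± 4041 CPM (SD, n = 3), and 2110.3 CPM without control 2. Bglap had its highest level in control 1 and its lowest in control 3, and so did Bglap2. Bglap and Bglap2 kept a nearly fixed ratio of 3.18, 3.05 and 2.98 between their counts, and because they are near-identical their division of shared reads is uncertain.

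Genes that act in mineralization were measured at lower levels. Alpl, the phosphatase that frees phosphate for mineral, had 923, 1716 and 1224 CPM, and the phosphate transporter Slc20a2 had 866, 1105 and 552 CPM. Phex, an endopeptidase of phosphate balance, had 217, 497 and 139 CPM and was highest in control 2. The acidic proteins of bone and dentin had 123, 199 and 121 CPM for Ibsp, 79.0, 220.3 and 95.2 CPM for Spp1 and 37.8, 130.1 and 104 CPM for Dmp1. Dmp1 was lowest in control 1, whereas Dspp was lowest in control 3. Mgp, an inhibitor of mineralization, had 143, 114 and 109 CPM, and Enpp1, which makes the inhibitor pyrophosphate, had 50.8, 93.9 and 47.8 CPM. The pyrophosphate transporter Ank had 129.8, 151 and 182 CPM and the secretory kinase Fam20c had 102, 159 and 150.4 CPM. Phospho1, which shares most of its exon bases with Zfp652 and Abi3 in the annotation and is therefore uncertain, had 9.41, 20.7 and 17.7 CPM. Smpd3 and Slc20a1 had means of 109 ± 28.5 and 22.8 ± 7.17 CPM (SD, n = 3). Mepe, a protein of osteocytes and of bone matrix, had 0.403, 2.45 and 0.336 CPM.

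Many of these genes belong to the secretory calcium-binding phosphoprotein family, which arose by duplication and lies in groups on chromosome 5. On GRCm38, Odam (chr5:87885029-87894174), Amtn (chr5:88376108-88385916), Ambn and Enam lie in 1 group. Dspp (chr5:104170712-104180127), Dmp1 (chr5:104202613-104214102), Ibsp (chr5:104299171-104311469), Mepe (chr5:104325329-104338611) and Spp1 (chr5:104435118-104441050) lie in another. These 9 genes held 44.6, 54.8 and 56.5% of the counts of the 1215 measured genes of that chromosome. They held 3.92, 5.30 and 5.76% of all counts.

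**Figure D2:**
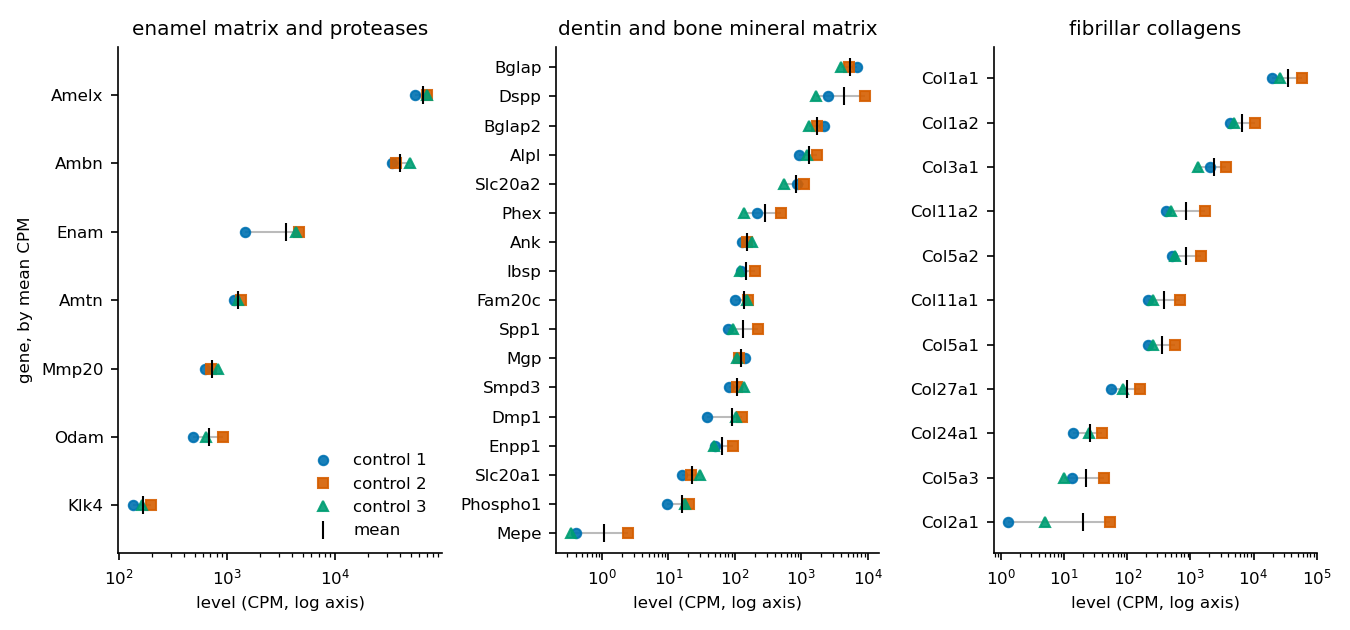
Level in CPM on log axes of every measured member of the enamel, dentin and fibrillar collagen lists, with 1 symbol per control library and a black tick at the mean. Control 1 is the lowest for each of the 7 enamel genes, and control 2 is the highest for each of the 11 fibrillar collagens.

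All 11 fibrillar collagen genes were measured at a mean of at least 10 CPM, and they summed to 27291, 78555 and 33948 CPM, or 2.73, 7.86 and 3.39% of counts. Control 2 held the highest level of every member. Every member also had a ratio over 2 between the highest and the lowest library, against 19.7% of the 9758 genes with a mean of at least 10 CPM. The mean sum was 46598 ± 27875 CPM (SD, n = 3), and 30619.8 CPM without control 2. Col1a1 and Col1a2 are known to assemble in a fixed proportion of chains, and their ratio per kb of the longest transcript was 4.26, 5.07 and 4.83. Per kb of all exons it was 8.94, 10.6 and 10.1, since the annotation of Col1a2 holds many more exon bases than its longest transcript.

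The other fibrillar chains were also highest in control 2, and which of controls 1 and 3 was lowest differed between them. Col3a1 had 2022, 3625 and 1326 CPM. Col5a1, a chain of the type V collagen that regulates the width of type I fibrils, had 216, 574 and 256 CPM, and its partner Col5a2 had 504, 1456 and 566 CPM. Of the chains of type XI collagen, Col11a1 had 212, 675 and 257 CPM and Col11a2 had 409.8, 1682 and 489.7 CPM. Col27a1, Col24a1 and Col5a3 were lower, with means of 99.9 ± 54.3, 26.1 ± 13.2 and 22.1 ± 18.3 CPM (SD, n = 3). The libraries of Col5a3 had 13.4, 43.2 and 9.81 CPM, and its mean was 11.6 CPM without control 2. Col2a1, the collagen that defines cartilage, had 1.30, 52.6 and 4.95 CPM and was 40.4 times as high in control 2 as in control 1. It reached a mean of 10 CPM through control 2 alone, unlike the other 10 fibrillar chains.

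The collagens that bind or surround fibrils were led by type VI and type XII. Col6a1 had 374, 745 and 315 CPM, its partner chain Col6a2 had 449.8, 831 and 365 CPM, and Col12a1 had 236, 566 and 154 CPM. In this list of 23 measured genes, 10 of 16 with a mean of at least 10 CPM had a ratio over 2, against 19.7% of all such genes. Proteins that modify and fold collagen summed to 9367, 8413 and 8653 CPM. A ratio over 2 was found for 11 of 25 with a mean of at least 10 CPM, against 19.7% of all such genes. Without Adamts14, which reached that mean through control 2 alone, a ratio over 2 was found for 10 of 24. Control 2 was highest for 17 of the 25. It was also highest for 1148 of the 1922 genes of any kind with a ratio over 2, so this count is not particular to the list. The leading member of this list, Serpinh1, had 3406, 2435 and 2563 CPM. P4hb, a subunit of the enzyme that hydroxylates collagen prolines, had 2161, 1348 and 2227 CPM. Both were lowest in control 2. Lox, the enzyme that crosslinks collagen, had 331, 551 and 267 CPM and Bmp1, which removes the procollagen ends, had 149, 298 and 130.2 CPM, and both were highest in control 2. Plod2, a lysyl hydroxylase, had 422, 547 and 857 CPM and was highest in control 3.

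The small leucine-rich proteoglycans, which bind collagen fibrils, summed to 3740.1, 5412 and 2313 CPM. Bgn had 1055, 2002 and 796 CPM, and Fmod had 837, 1416 and 314 CPM. Lum and Dcn were steadier between controls 1 and 2, with 1033, 1038 and 676 CPM for Lum and 634, 646 and 443 CPM for Dcn. Control 3 was the lowest library for all 7 members with a mean of at least 10 CPM. Matricellular and elastic fiber proteins summed to 12074, 17955 and 7448 CPM, and control 3 was lowest for 18 of 23. After Sparc, they were led by Tnc, which encodes tenascin C, with 623, 1253 and 362 CPM and by Fn1, which encodes fibronectin, with 482, 1079 and 288 CPM. Postn, a protein of the periodontal ligament and the follicle, had 307, 771 and 134 CPM.

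Basement membrane genes, 24 in number, summed to 2887, 6512 and 5179 CPM. Lama3 and Lamb3 encode laminin chains that anchor epithelia. Lama3 had 312, 717 and 783 CPM and Lamb3 had 409, 743 and 920.4 CPM, each lowest in control 1 and highest in control 3. Of the type IV collagen chains, Col4a1 had 213, 623 and 284 CPM and Col4a2 had 155, 441 and 207 CPM, and both were highest in control 2. Control 2 was the highest library for 19 of 22 members with a mean of at least 10 CPM. Long transcripts as a class also had a higher median in control 2, as given below. A ratio over 2 was found for 19 of 22, against 19.7% of all such genes.

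Markers of dental epithelium were present in all libraries, as were those of the dental mesenchyme described below. The keratins of its basal layer, had 775, 947 and 1645 CPM for Krt5 and 654, 672 and 1184 CPM for Krt14, and Krt17 had 448, 371 and 902 CPM. Perp, a component of desmosomes, had 707, 489.9 and 963 CPM and Cdh1, which encodes E-cadherin, had 110.1, 229 and 305 CPM. Trp63, a transcription factor that marks this epithelium, had 73.3, 144 and 155 CPM. Shh, a signal made by the epithelium of the incisor, had 72.8, 135 and 196 CPM, and Sox2, a marker of epithelial stem cells, had 1.15, 1.74 and 2.54 CPM. The list summed to 3379, 3823 and 6434 CPM, and control 3 was highest for 15 of 16 members with a mean of at least 10 CPM. Lgr5 was not among the genes analysed here.

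Genes of ameloblast function outside the matrix summed to 2259, 3200.1 and 3394 CPM. Calb1, a calcium-binding protein, had 925, 1139.7 and 1261 CPM, and Sp6, a transcription factor of ameloblasts, had 438, 635 and 775 CPM. Acp4, a phosphatase needed for enamel, had 296, 312 and 461 CPM. Ion handling was represented by Slc4a4, a bicarbonate cotransporter, with 50.9, 137 and 125 CPM, by Slc24a4, a calcium exchanger, with 14.8, 79.5 and 35.1 CPM and by the store-operated calcium sensor Stim1 with 133, 193 and 143 CPM. Control 1 was the lowest library for all 14 members with a mean of at least 10 CPM, as it was for the enamel matrix. Genes of keratinized and oral epithelium, of which 7 of 13 were measured, summed to 19.4, 15.4 and 35.8 CPM. Krt6a led them with 11.4, 7.91 and 24.7 CPM, while the cornified-layer gene Ivl lay at 0.0929, 0 and 0 CPM.

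Transcription factors of the dental mesenchyme were measured at lower levels than the matrix genes and summed to 1977, 2215 and 1737 CPM. Dlx3, a homeobox factor of odontoblasts and ameloblasts, had 338, 459 and 393 CPM. Of the homeobox factors of tooth formation, Msx1 had 353, 274 and 174 CPM and Msx2 had 261, 227 and 226 CPM. Runx2 and Sp7 are factors of mineralizing cells. Runx2 had 34.5, 83.6 and 38.6 CPM and Sp7 had 117, 157 and 99.4 CPM. Pax9, Lhx6 and Lhx8, which act in tooth patterning, had means of 14.3 ± 3.59, 9.40 ± 1.02 and 18.0 ± 5.04 CPM (SD, n = 3). Barx1, which is known from the molar region, had 0.619, 1.26 and 1.13 CPM. Of 22 factors with a mean of at least 10 CPM, 4 had a ratio over 2, or 18.2%, close to the 19.7% of all such genes. Of 39 Hox genes, Hoxd8 was the only one among the genes analysed here, with 0.743, 0.773 and 0.734 CPM.

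Odontoblast markers were led by Dspp and included Nes, which encodes the filament protein nestin, with 265, 468 and 188 CPM, Notum, a Wnt antagonist, with 18.2, 19.3 and 37.7 CPM and Sall1 with 5.85, 18.5 and 9.08 CPM. The list summed to 3204, 10349 and 2339.7 CPM, with a mean of 5297 ± 4396 CPM (SD, n = 3), and 2772 CPM without control 2. Dspp alone held 2539, 9069 and 1682 CPM of these sums, so their spread was mostly that of 1 gene. Control 2 was highest for 5 of the 8 members and control 3 for 3. The genes used to mark mesenchymal stem cells and their surroundings included Gli1 (chr10:127329882-127341974), a target of hedgehog signaling, with 24.0, 27.9 and 35.4 CPM. The hedgehog receptor and target Ptch1 had 212, 306 and 323 CPM, Axin2, a Wnt target, had 17.1, 27.9 and 23.7 CPM and Thy1 had 30.8, 23.8 and 31.0 CPM. Pdgfrb, a receptor of pericytes and stroma, had 117, 199 and 72.1 CPM and Cxcl12, a chemokine of stroma, had 154, 152 and 57.8 CPM. Gli1 differed by a ratio of 1.47 between libraries.

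Of the receptors for fibroblast growth factors, Fgfr1 (chr8:25513654-25575718), which these mice carry as floxed alleles, had 563, 1083 and 459 CPM. Fgfr2 had 93.2, 135 and 89.5 CPM, Fgfr3 had 116, 143 and 51.3 CPM and Fgfr4 had 3.25, 3.12 and 1.59 CPM. Per kb of exons, Fgfr1 was 6.69 ± 1.55 times as high as Fgfr2 and 5.16 ± 1.51 times as high as Fgfr3 (SD, n = 3), so it was the highest of the 4 in every library. Among the ligands, Fgf1 had 16.3, 32.6 and 23.3 CPM. Fgf3 and Fgf10, which the dental mesenchyme is known to secrete, had 5.88, 4.12 and 7.98 CPM for Fgf3 and 6.66, 5.86 and 5.87 CPM for Fgf10. Fgf9, a ligand of the epithelium, had 2.32, 2.70 and 4.28 CPM, and Fgf2 had 8.56, 10.9 and 6.12 CPM.

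Genes of DNA replication and mitosis summed to 509, 502 and 712 CPM over 25 genes. Pcna, the sliding clamp of replication, had 73.5, 46.2 and 75.1 CPM, Top2a had 37.4, 48.7 and 62.3 CPM and Mki67 had 12.4, 41.8 and 34.9 CPM. Control 3 was highest for 19 of 20 members with a mean of at least 10 CPM, and Mki67 was the exception with its highest value in control 2. Plk1, which counts among the 19, reached that mean through control 3 alone and had a mean of 8.61 CPM without it. The same library was also the highest for the dental epithelium list. Follicle and periodontal genes other than Postn were led by Spon1 with 87.2, 104 and 83.1 CPM, and Pthlh, a signal of the follicle and epithelium, had 30.1, 26.2 and 39.8 CPM with its receptor Pth1r at 47.6, 50.4 and 36.8 CPM. Of the markers of tendon and ligament, Tnmd had 3.90, 3.35 and 4.10 CPM and Scx had 3.00, 1.67 and 1.93 CPM. Mkx, another of them, was higher, with a mean of 14.9 CPM.

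**Figure D3:**
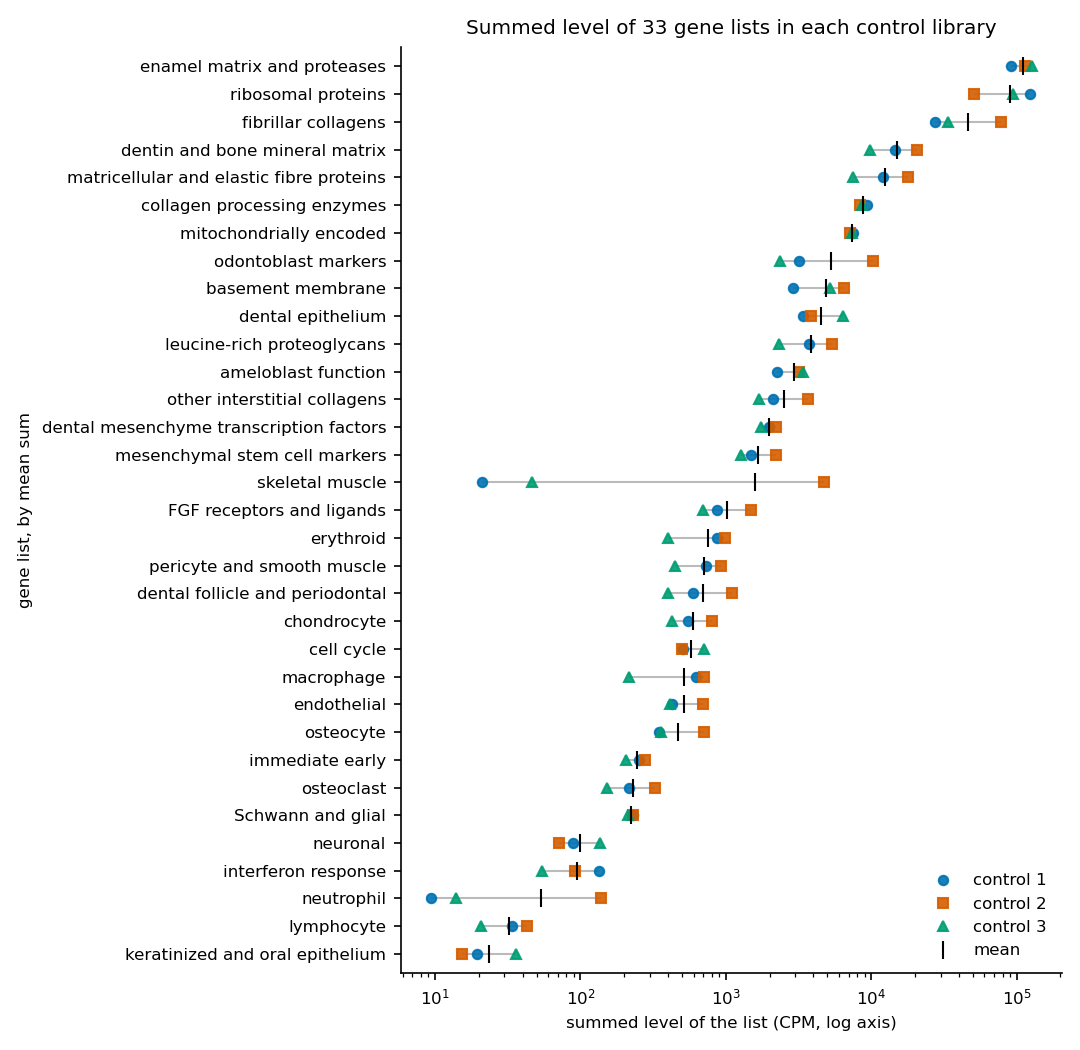
Summed level in CPM on a log axis of 33 gene lists in each control library, with a black tick at the mean and a grey line from the lowest to the highest library. Enamel matrix and ribosomal proteins lie at the top, and skeletal muscle and neutrophil genes show the widest gaps, with control 2 far above controls 1 and 3.

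The remaining cell types were represented by lower sums. In bulk tissue, fewer cells of a type and less RNA per cell cannot be told apart. Endothelial genes summed to 429.6, 701 and 411 CPM and were highest in control 2, with Plvap at 59.9, 99.8 and 60.4 CPM, Cdh5 at 47.3, 111 and 52.0 CPM and Pecam1 at 43.4, 75.6 and 41.9 CPM. Pericyte and smooth muscle genes summed to 734, 928 and 449.6 CPM, with Rgs5 at 175, 222 and 74.5 CPM and Acta2 at 115, 96.2 and 80.3 CPM. Des, which skeletal muscle also expresses, had 0.557, 90.5 and 0.795 CPM, and was high in the library that was high in the muscle genes.

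Macrophage genes were lower in control 3 than in the other libraries. They summed to 622, 706 and 214 CPM, and 9 of 9 members with a mean of at least 10 CPM had a ratio over 2, against 19.7% of all such genes, and each was lowest in control 3. Of the complement genes, C1qa had 110.1, 79.2 and 32.7 CPM, C1qb had 78.3, 69.5 and 25.8 CPM and C1qc had 99.5, 86.3 and 29.5 CPM. Lyz2, a lysozyme of myeloid cells, had 138, 150.4 and 43.1 CPM and Csf1r, the receptor that macrophages need, had 70.2, 137 and 32.3 CPM. Hemoglobin transcripts were lower in control 3 as well, with Hbb-bs at 432, 334 and 165 CPM. Hba-a1, with 216, 204 and 116 CPM, and Hba-a2, with 184, 342 and 95.3 CPM, are near-identical copies, so their division is uncertain.

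Osteoclast genes were led by Ctsk, which some mesenchymal cells express too, with 137, 151 and 77.9 CPM and by Acp5 with 44.7, 87.0 and 44.1 CPM. Of the genes more restricted to osteoclasts, Ocstamp, Oscar, Dcstamp and Calcr lay under 1 CPM in every library. The other listed genes were higher, with means of 34.0 CPM for Mmp9, 10.1 for Itgb3, 2.21 for Atp6v0d2 and 2.04 for Tnfrsf11a. Without control 2 the mean of Itgb3 was 5.70 CPM. Neutrophil genes summed to 9.35, 138 and 13.9 CPM, with S100a9 at 2.79, 45.1 and 4.83 CPM and Ngp at 1.02, 30.7 and 2.81 CPM. The mean of that sum was 53.8 CPM, and 11.6 CPM without control 2, the library that was also high in muscle genes. Lymphocyte genes were low, with Ighm at 13.5, 20.6 and 6.42 CPM and the T cell gene Cd3d at 0.186, 0.193 and 0.122 CPM. Interferon response genes summed to 135, 92.4 and 54.4 CPM, and immediate early genes, which respond within minutes to handling or signals, summed to 255, 277 and 205 CPM.

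Schwann cell genes summed to 230.1, 228 and 212 CPM. Their leading member was Pmp22, which many cell types express, with 111, 93.5 and 118 CPM. The myelin gene Mbp had 20.6, 24.4 and 17.5 CPM, and the glial factor Sox10 had 0.929, 1.45 and 0.397 CPM. Of 14 neuronal genes listed, 8 were measured, and Scn9a and Scn10a of sensory neurons were not among them. The measured genes were low apart from Tubb3, with 73.0, 62.3 and 122 CPM, and Tac1, with 11.6, 4.09 and 8.83 CPM. Of the sensory neuron genes, Calca, Trpv1 and Prph lay under 1 CPM in every library. Avil, the gene through which the study targeted sensory nerves, had a mean of 2.50 CPM. The cell bodies of the nerves that supply the incisor are known to lie outside it.

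Cartilage genes were partly present, with Col9a2 at 289.6, 420.0 and 156 CPM and Sox9 at 87.5, 135 and 85.2 CPM, while Acan, which defines cartilage matrix, had 8.58, 12.4 and 2.08 CPM and Matn3 had 0.495, 0.258 and 0.0611 CPM. The osteocyte gene Sost had 3.75, 7.89 and 5.38 CPM. The fat cell gene Adipoq lay at 0, 0.419 and 0.367 CPM. Of the melanocyte genes, Dct had 10.6, 8.02 and 17.1 CPM and Pmel had 0.954, 1.44 and 0.929 CPM. Of 17 genes that mark liver, pancreas and other distant organs, 3 were measured, and their sum was 1.46, 1.35 and 0.275 CPM.

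Skeletal muscle genes were high in control 2 and low in the other libraries. Acta1, the actin of skeletal muscle, had 2.48, 1035 and 9.87 CPM, and Myh1, a fast myosin heavy chain, had 0.220, 722 and 1.74 CPM. Ckm, muscle creatine kinase, had 0.836, 458 and 3.85 CPM, Atp2a1, the calcium pump of fast fibers, had 0.384, 456 and 2.64 CPM and Tnnt3, a troponin of fast fibers, had 0.650, 336 and 2.84 CPM. The ratios of Acta1 and Ckm between control 2 and control 1 were 416 and 548. The 18 members with a mean of at least 10 CPM all reached it through control 2 alone, so their count by library was fixed by that filter. Of the other 3 measured members, Tnnt1 had 3.53, 1.77 and 1.41 CPM and was not higher in control 2. Tnni1 was not highest in control 2 either, with a mean of 1.16 CPM that was 1.04 CPM without control 1 and 1.08 CPM without control 2. Myh4 had a mean of 3.19 CPM, and 1.72 CPM without control 2. Of the 15 genes with the highest ratio at a mean of at least 10 CPM, 11 belonged to the muscle list, and they entered this ranking through control 2. Mybpc2, a myosin-binding protein of fast fibers, and Eef1a2, the elongation factor form of muscle and nerve, were also among them, with 0.155, 106 and 0.581 CPM for Mybpc2 and 0.0929, 48.8 and 0.520 CPM for Eef1a2. The muscle list held 0.00209, 0.471 and 0.00467% of counts, and its mean sum was 1591 CPM with control 2 and 33.8 CPM without it.

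The other 2 of these 15 genes were pseudogenes of ribosomal proteins, Rps13-ps1 with 175, 0.370 and 147 CPM and Rps15a-ps8 with 36.2, 0 and 32.0 CPM, whose reads cannot be cleanly separated from those of the genes they derive from. Among genes that were highest in control 3, the largest ratios were those of Vsig8, with 0.526, 14.5 and 28.6 CPM, and H2ac12, with 18.0, 8.15 and 64.5 CPM. Among protein-coding genes that were highest in control 1, they were those of Pamr1, with 17.7, 17.2 and 2.72 CPM, and Stc2, with 80.5, 68.3 and 16.3 CPM. These 4 genes were chosen after their values were seen.

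Ribosomal protein genes were the other large share of counts. All 79 were measured at a mean of at least 10 CPM, and they summed to 124372, 50565 and 93869 CPM, or 12.4, 5.06 and 9.39% of counts. Control 1 was the highest and control 2 the lowest library for each of the 79 genes, and 67 of 79 had a ratio over 2, against 19.7% of all genes at that level. The mean sum was 89602 ± 37088 CPM (SD, n = 3), and 109120.0 CPM without control 2. Rplp0 had 4497, 1260.0 and 2509 CPM and Rpsa 3581, 1489 and 3048 CPM. The elongation factor Eef1a1 and Tpt1, with 5517, 2218 and 4072 CPM, followed the same order of libraries. This order was the reverse of that of Col1a1 between controls 1 and 2.

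The 13 protein genes of the mitochondrial genome had a steady sum of 7476, 7145 and 7329 CPM, with a ratio of 1.05 between libraries. Single members moved more, with mt-Co1 at 1727, 2173 and 2130.4 CPM and mt-Nd5 at 211, 507 and 269.8 CPM. The value of mt-Co3, 1784, 703 and 1388 CPM, is uncertain, because Gm28437, a pseudogene copy, had almost the same level in each library, 1785, 704 and 1389 CPM. Protein-coding genes held 94.8, 96.9 and 92.3% of counts, and genes annotated as ribosomal RNA held 2.31, 1.24 and 5.10%, nearly all of it in CT010467.1 (chr17:39846353-39848827). That gene overlaps Gm42418 and AY036118 in the annotation. Mir6236 (chr9:110281287-110281409), the only microRNA gene among the 10 highest genes per kb, had 455, 129 and 651 CPM, and Lars2 had 1409, 408 and 2146 CPM, which is the same order of libraries as for CT010467.1. The mature sequence of miR-6236 in RefSeq is shown because of this level, with its seed in capitals.
miR-6236: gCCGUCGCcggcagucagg
The count is of the annotated gene span and not of the mature microRNA.

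The spread between the 3 libraries was larger than counting error for most genes. The median coefficient of variation (CV, the SD as a percentage of the mean) was 21.6% over the 9758 genes with a mean of at least 10 CPM, against 2.96% from counting alone. The CV was above that of counting for 9581 of them. It did not fall with the level, and the median was 21.4% for genes from 10 to 30 CPM and 37.1% for the 98 genes from 1000 CPM. The biological coefficient of variation from edgeR was 0.307, and 0.218 without control 2. The least variable genes from 100 CPM were Tpm3, with 196, 195 and 195 CPM, Rab14, Actr1b, H1f0 and Maged1.

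**Figure D4:**
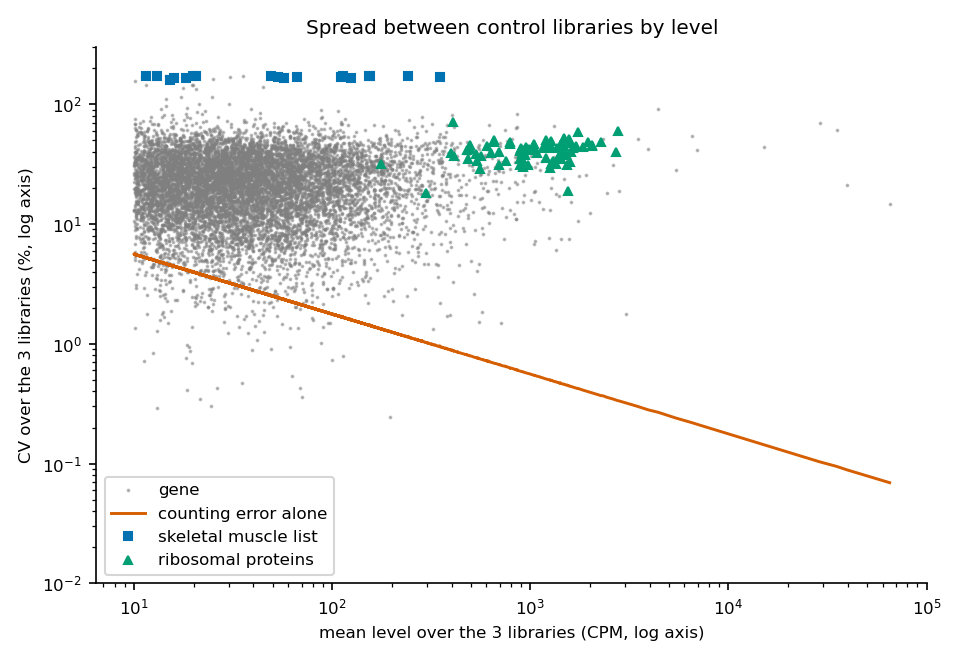
CV in percent against mean level in CPM, both on log axes, for each gene with a mean of at least 10 CPM, with the CV that counting alone gives as a line. Nearly all genes lie above the line, the skeletal muscle genes lie along the top, and the ribosomal protein genes lie at high levels with a CV mostly in the upper range of other genes.

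A ratio over 2 between the highest and the lowest library was found for 1922 genes, which is the 19.7% given above. Control 2 was the highest library for 1148 of them, control 1 for 597 and control 3 for 177. Over the same 9758 genes, controls 1 and 3 differed by more than 2-fold in 370, controls 2 and 3 in 688 and controls 1 and 2 in 1226. The correlation of log2(CPM + 1) across 18899 genes, which are not independent replicates, was 0.984 between controls 1 and 3, 0.969 between controls 2 and 3 and 0.963 between controls 1 and 2 (Pearson's r), and Spearman's rho was 0.980, 0.966 and 0.959. Of the 100 most counted genes of each library, 58 were shared by all 3. Each pair of libraries differed by more than counting noise, so none was treated as a library deposited again, which does not show that they came from separate mice.

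The differences between controls 1 and 2 moved with transcript length. Over genes with a mean of at least 10 CPM, the median log2 difference of a library from the mean of the 3, on the scale of log2(CPM + 1), was 0.36, -0.54 and 0.045 for transcripts under 1 kb and -0.44, 0.44 and -0.12 for those over 8 kb. The ribosomal protein genes, most of which are short, had medians of 0.45, -0.83 and 0.066, and 0.17, -0.44 and 0.051 relative to genes of their own length class. The fibrillar collagens, which are long, had medians of -0.84, 0.76 and -0.57, and -0.64, 0.52 and -0.48 relative to their class. The order of the libraries was therefore the same for both lists relative to length, and the differences were smaller. For Dspp the values were -0.80, 1.03 and -1.40, and -0.61, 0.79 and -1.31 within its class. The basement membrane list had medians of -0.70, 0.53 and -0.15, and -0.39, 0.21 and -0.066 relative to length class. The macrophage list, with 0.29, 0.37 and -1.25 and 0.16, 0.54 and -1.19, and the dental epithelium list, with -0.41, -0.14 and 0.43 and -0.57, -0.098 and 0.47, changed less. The part of transcript length, of muscle or of the dissection in any of these differences was not tested.

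**Figure D5:**
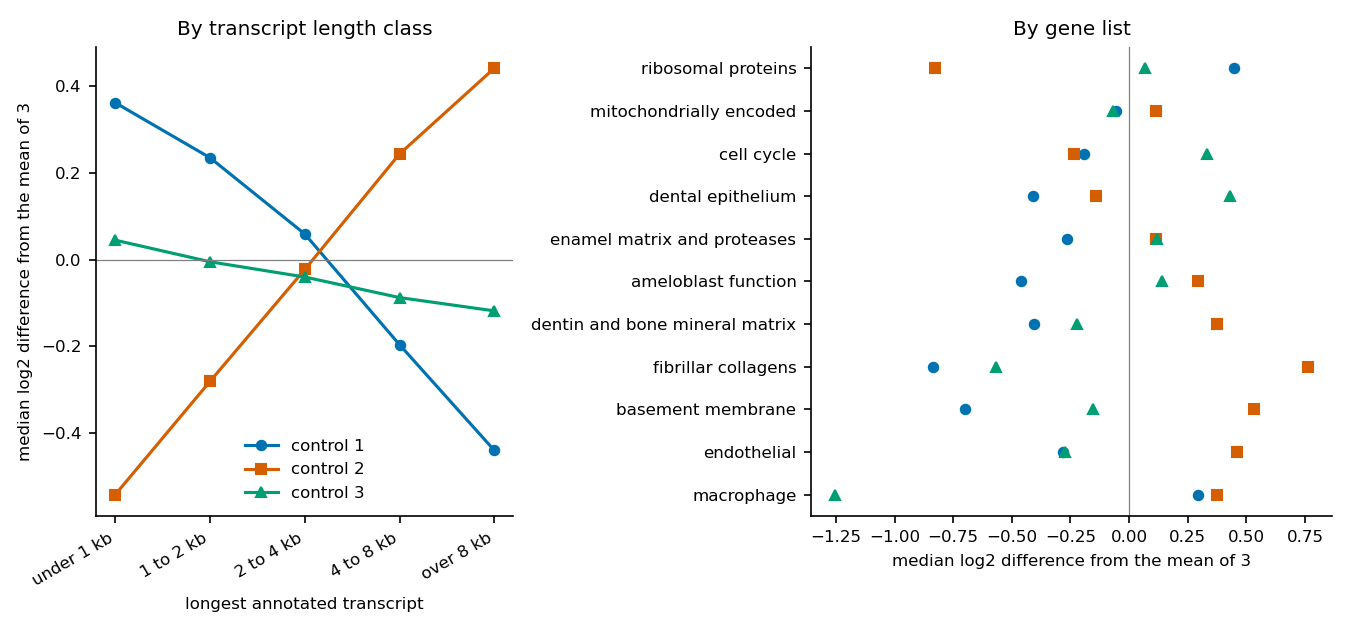
Median log2 difference of each control library from the mean of the 3, on the left by class of transcript length and on the right by gene list. Control 1 falls and control 2 rises from short to long transcripts, while control 3 stays between -0.12 and 0.045.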

How the data were processed

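Bulk RNA of mouse incisor was sequenced in 3 control and 3 mutant samples, of which the controls were used here. The authors trimmed single reads and aligned them to mm10 in Partek Flow, and TopHat2 2.0.8 is named, without a role, in the submitters' processing notes. The deposited values are estimated counts per gene, not normalized and in part fractional. The counting model, annotation, strand setting and filter on features are not given in the sources used here, so values of overlapping and near-identical genes are uncertain. Every gene had at least 10 counts in at least 1 sample. A second table deposited by the authors holds the p-values and fold changes of their own comparison and was not used.

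Counts were divided by the library total to give CPM. The control totals lay between 31060222 and 32712448 counts. Of 19060 genes, 18599 matched GENCODE M21 (GRCm38) by symbol and 214 by synonym. For comparisons between genes CPM was divided by the kb of all exons or of the longest transcript. Ratios used a floor of 3 counts per library, and genes with a mean of at least 10 CPM entered the counts of ratios over 2. Correlations used log2(CPM + 1). Python 3.11.15, pandas 2.3.3, scipy 1.17.1, R 4.3.3, edgeR 4.0.16 and DESeq2 1.42.0 (size factors only) were used. The estimate of variation was tested on simulated data. No test between groups was made. Promoters and miRNAs came from RefSeq tables (GRCm38.p6).

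The genes and the 38 lists (640 genes, 538 measured) were chosen with earlier results of these data known. Named genes were the 20 highest by CPM, the 10 highest per kb, all enamel, dentin and fibrillar collagen genes, the leading 5 and the near-absent markers of other lists, the 15 highest ratios and the 5 lowest CVs. FGF receptors, Gli1 and sex-linked genes were added. Other list members were named for their roles after their values were seen. Most list members are given only through counts and sums.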

Additional observations from a re-analysis of the deposited data

How the results depend on the processing

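No paired analysis was possible because no comparison between groups was made. Other scaling (TMM, upper quartile, DESeq2 size factors), rounded counts and protein-coding genes alone moved none of the results they were applied to by more than the spread between libraries. The number of genes with a ratio over 2, 1922, was 3642 for a mean of at least 1 CPM and 6136 with no filter. It was 5039 for a ratio over 1.5. Relative to genes of the same length class, an alternative chosen after seeing the data, it was 994. With 1 library left out, the number was counted over the genes that then had a mean of at least 10 CPM. It was 396 without control 2, 786 without control 1 and 1405 without control 3. These counts rest on fewer libraries than 1922 does. The lowest correlation between a pair of libraries was 0.963, fell to 0.932 over genes with a mean of at least 1 CPM, and ranged from 0.963 to 0.984 with 1 library left out. The mitochondrial sum moved from 7317 to 7518 CPM relative to length class and to 7537 CPM without ribosomal RNA genes. Leaving out ribosomal RNA genes takes on average 2.88% of counts from the library totals, which raises the CPM of every other gene. The cause of the other moves was not tested. With 3 libraries, and with values down to 3 counts, differences between low genes could not be resolved.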
